A study of Mus musculus with 18 samples.

Results

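The voltage-gated ion channel genes and their channel relatives were selected on the authors' deposited comparison of reprogrammed mouse fibroblasts. A gene was taken when its symbol began with Kcn or Cacn, or was Scn with a number and a or b, and when its mean in that table was at least 10. The mean is the average over all 6 fibroblast libraries of counts scaled for library depth. Of 35734 rows, 134 symbols matched and 77 passed the minimum. The other 57 lay below it, and 4 of those were listed at 0. Members closest to the minimum were Kcnj10 (mean 11.3), Kcna3 (11.5) and Kcng1 (11.5) in the authors' deposited table, while Kcnh3 (8.60) and Kcnrg (8.41) were just outside it.

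The label covers only some of the members by name. There were 34 pore-forming subunits of voltage-gated sodium, calcium and potassium channels. The rest were 24 auxiliary subunits, 6 inward rectifiers, 7 pore-forming subunits of 2-pore potassium channels and 6 potassium channel pores that calcium or sodium opens. Inward rectifiers, 2-pore channels and the small-conductance calcium-activated channels are not opened by a voltage sensor, although they set the membrane potential on which the others act.

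The fibroblasts were mouse embryonic fibroblasts of the line R26-M2rtTA (strain C57BL/6), whose doxycycline-controlled transactivator switched on lentiviral vectors. Both groups received Brn2 and Myt1l, neuronal transcription factors, and were collected 48 h after doxycycline. In 1 group the zinc finger factors Ikzf1 and Ikzf4 were added, and each group had 3 RNA-seq libraries. These held 34966344 to 44270426 estimated reads. No group without Brn2 and Myt1l entered the comparison, so every fold change is that of adding Ikzf1 and Ikzf4 to cells that already had them.

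The retinal data were 1 control and 1 Ikzf1/4 library of single-nucleus multiome ATAC, which reads open chromatin through transposase insertion. The control came from retina of the line GLAST-CRE ERT2 ; RosaYFP with mCherry, on a C57BL/6 background, and was labelled Muller glia, the support cells of the retina. The Glast promoter drives the tamoxifen-dependent Cre in that line. The labels of the Ikzf1/4 library repeat its title in place of tissue, line and condition. Both are described with tamoxifen and 14 days, whereas the run names in the file headers carry 48 h, so the time is uncertain.

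Voltage-gated channels open when the membrane depolarises. Sodium channels carry the upstroke of the action potential, calcium channels turn depolarisation into calcium entry and transmitter release, and voltage-gated potassium channels end the spike and set firing rate. Inward rectifiers and 2-pore potassium channels hold the resting potential. In the retina, photoreceptors and bipolar cells signal with graded potentials through calcium channels, and Muller glia take up potassium through inward rectifiers.

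Adding Ikzf1 and Ikzf4 left 22 of the 77 members higher and 13 lower at a DESeq2 adjusted p under 0.05 in the authors' deposited table, and 42 did not pass. That is 45.5% of the members, where 30.6% of all 16757 genes with an adjusted p were called, 15.3% higher and 15.4% lower. Among genes with a mean of at least 10 the share was 33.4%. The members were chosen with this comparison in view, so these shares describe them and carry no test. The median log2 fold change of the members was 0.11, beside -0.0046 for all genes with a mean of at least 10. Values over 1 in either direction with an adjusted p under 0.05 were listed for 9 members, of which 8 were higher, beside 2.15% of all genes. The means of these 9 ran from 27.9 to 855, with a median of 71.8, so several lay near the minimum.

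Calls went with level. Among the 17 members with a mean of 10 to 30, 2 were called, or 11.8% beside 10.7% of genes at that level. From 30 to 100 the share was 47.6% of 21 members beside 23.6% of genes, and from 100 to 300 it was 52.2% of 23 beside 30.3%. All 5 members called above a mean of 1000 came from 7 at that level, or 71.4% beside 40.5% of genes. The median mean of the members, 101.6, was below that of genes with at least 10, at 871.6. In the authors' deposited table no standard error exceeded 0.226, even at low means. Whether its fold changes were shrunk is not stated, so those of the rarest members may be understated. The table's mean is not per length, so levels of different members are not compared.

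A fold change per library could not be given, because no source used here pairs the transcripts of the library files with genes. In RNA from whole cultures, fewer cells of a type and less RNA per cell cannot be told apart.

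**Figure D1:**
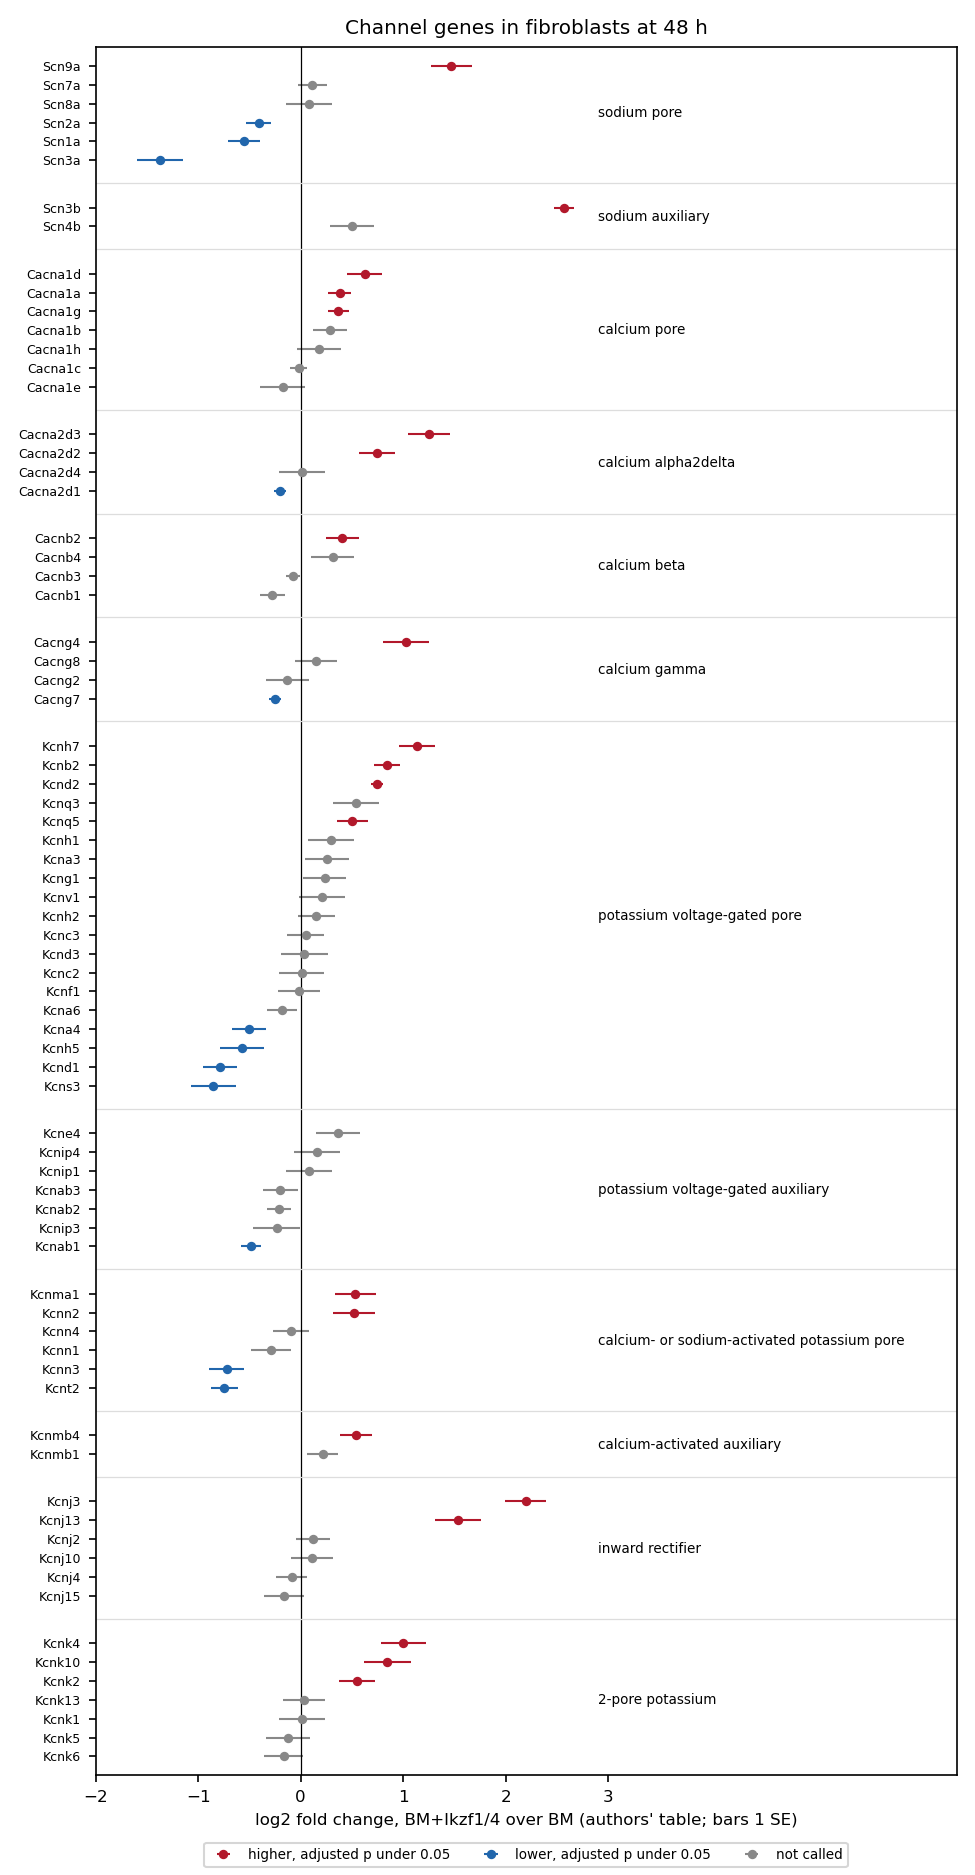
Log2 fold change of 74 of the 77 channel genes in fibroblasts with Ikzf1 and Ikzf4 over those without, from the authors' deposited table, grouped by family (bars: 1 standard error). Red points (21) were higher and blue points (12) lower at an adjusted p under 0.05, and grey points (41) did not pass; Scn3b lies farthest right and Scn3a farthest left.

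The pore-forming sodium channel genes split in direction. Of 6 such members, Scn9a was higher, Scn1a, Scn2a and Scn3a were lower, and Scn7a and Scn8a did not pass. Scn9a, which encodes the Nav1.7 channel of sensory and sympathetic neurons, had a log2 fold change of 1.47 (SE 0.20) in the authors' deposited table, a 2.77-fold difference. Scn3a, the embryonic brain channel Nav1.3, had -1.37 (SE 0.22) there, or 2.59-fold lower. It was the lowest value of any member. Scn1a, the Nav1.1 channel of fast-spiking interneurons, was listed at -0.55 (SE 0.16) and Scn2a, the Nav1.2 channel of axon initial segments, at -0.41 (SE 0.12). Scn7a, the salt-sensing channel Nax, was listed at 0.11 (SE 0.15) and Scn8a, the Nav1.6 channel of nodes of Ranvier, at 0.09 (SE 0.22).

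Of these 6 genes, 5 form a cluster on chromosome 2 (GRCm38.p6). From Scn3a (65457118 to 65567591) the order is Scn2a (65620764 to 65767447), Scn1a (66270781 to 66440837), Scn9a (66480080 to 66635114) and Scn7a (66673426 to 66784910). The first 3 genes in that order were lower, and the fourth was higher. Scn1a and Scn9a, on either side of that change, are 39.2 kb apart, and Scn9a and Scn7a 38.3 kb. Between Scn3a and Scn2a there are 53.2 kb, and between Scn2a and Scn1a 503 kb. No test of one neighbour against another was made.

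**Figure D2:**
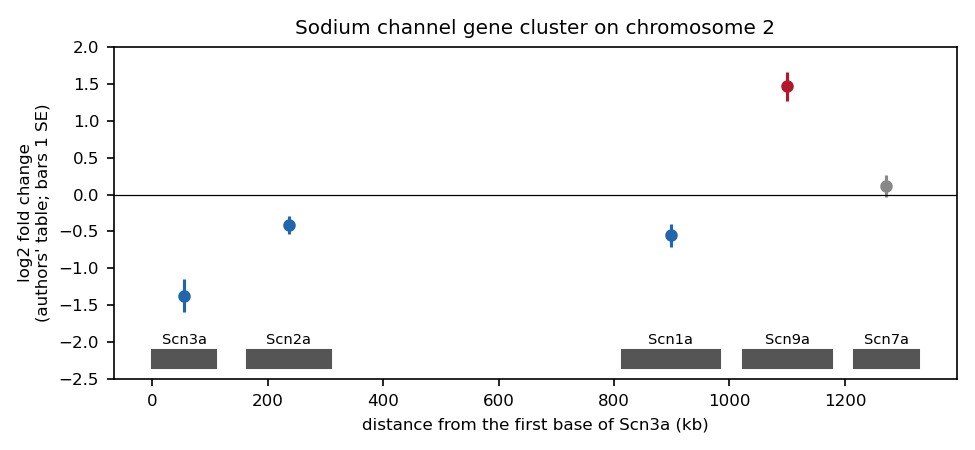
Log2 fold change (authors' deposited table; bars: 1 standard error) of the 5 sodium channel genes of the chromosome 2 cluster, placed at the middle of each gene, by distance from the first base of Scn3a. Grey boxes are the gene bodies to scale; Scn3a, Scn2a and Scn1a lie below 0, Scn9a at 1.47 and Scn7a near 0.

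The start regions of 3 of these neighbours are shown, those of the cluster with a single RefSeq promoter entry. They are the RefSeq promoters of GRCm38.p6 (250 bases before to 50 after the start site, 300 bases in all), on the gene's strand, at chr2:66440788-66441087 for Scn1a, chr2:66634913-66635212 for Scn9a and chr2:66784861-66785160 for Scn7a, all on the minus strand. Capitals mark TTCCCA, the reverse complement of TGGGAA, the core bound by Ikaros family zinc fingers.
Scn1a: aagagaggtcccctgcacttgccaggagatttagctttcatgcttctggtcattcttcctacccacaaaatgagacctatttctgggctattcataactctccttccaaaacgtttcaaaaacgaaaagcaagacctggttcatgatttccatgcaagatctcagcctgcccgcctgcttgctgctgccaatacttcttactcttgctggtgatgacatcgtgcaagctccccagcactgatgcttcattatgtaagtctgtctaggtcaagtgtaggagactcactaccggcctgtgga
Scn9a: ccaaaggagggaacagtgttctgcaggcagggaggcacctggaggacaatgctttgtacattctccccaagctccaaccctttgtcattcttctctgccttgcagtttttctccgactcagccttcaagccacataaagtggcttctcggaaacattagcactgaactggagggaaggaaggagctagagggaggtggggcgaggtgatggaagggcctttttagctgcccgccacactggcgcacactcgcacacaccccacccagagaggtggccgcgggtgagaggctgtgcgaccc
Scn7a: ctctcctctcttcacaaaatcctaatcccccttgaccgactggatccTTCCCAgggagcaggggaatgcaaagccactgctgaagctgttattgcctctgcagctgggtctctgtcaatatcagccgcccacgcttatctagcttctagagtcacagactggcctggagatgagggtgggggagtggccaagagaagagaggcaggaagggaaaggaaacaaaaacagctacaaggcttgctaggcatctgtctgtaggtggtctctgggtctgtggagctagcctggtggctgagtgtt
The core was found in Scn7a alone of these 3, at 1 place. Scn2a, a lower gene of the cluster with more than a single entry, is not printed. Its entry at chr2:65668436-65668735 held the core, and its other entry did not. Scn1a held 5 CpG pairs, Scn9a 9 and Scn7a 3. Retinal nuclei of the control and Ikzf1/4 multiome libraries gave few fragments within 500 bp of these starts, 8 and 8 at Scn1a, 12 and 4 at Scn9a and 11 and 6 at Scn7a.

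Among the auxiliary sodium subunits, Scn3b had the highest value of any member. This single-pass beta subunit, which shapes gating and surface delivery of the channel, had a log2 fold change of 2.57 (SE 0.10, DESeq2 adjusted p 1.93e-149), or 5.95-fold higher, in the authors' deposited table. Scn4b, tied to resurgent sodium current, was listed at 0.50 (SE 0.21, DESeq2 adjusted p 0.0555) and did not pass.

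Of the 7 pore-forming calcium channel members, 3 were higher and 4 did not pass. Cacna1d, the low-threshold L-type channel Cav1.3, was higher at 0.63 (SE 0.17) in the authors' deposited table. Cacna1a, the P/Q-type channel of fast synapses, was higher at 0.38 (SE 0.12), as was Cacna1g, a T-type channel, at 0.37 (SE 0.10). Values that did not pass there were 0.29 (SE 0.16) for the N-type gene Cacna1b, 0.18 (SE 0.21) for the T-type gene Cacna1h, -0.02 (SE 0.08) for the cardiac and smooth muscle L-type gene Cacna1c and -0.18 (SE 0.22) for the R-type gene Cacna1e. The standard errors differ widely among them.

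Of the alpha2delta subunits, extracellular proteins that bring calcium channels to the membrane, 2 of 4 were higher and 1 lower. Cacna2d3 was higher by 1.25 (SE 0.20) on the log2 scale, or 2.38-fold, in the authors' deposited table, and Cacna2d2 by 0.74 (SE 0.18). Cacna2d1, the main skeletal muscle isoform and a target of gabapentin, was lower at -0.20 (SE 0.06). Cacna2d4, the photoreceptor isoform, was listed at 0.01 (SE 0.23). Cacna2d3 lies 317 kb from Cacna1d on chromosome 14, and both were higher.

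Cytoplasmic beta subunits, which chaperone the pore, had 1 call in 4. Cacnb2 was higher at 0.40 (SE 0.16) in the authors' deposited table, and Cacnb4, Cacnb3 and Cacnb1 were listed at 0.31, -0.07 and -0.28 without passing. All 4 gamma members belong to the group known mainly as auxiliary proteins of AMPA glutamate receptors. Cacng4, with a mean of 27.9, was higher at 1.02 (SE 0.23) in the authors' deposited table. Cacng7, with a mean of 3483, was lower at -0.25 (SE 0.06), while Cacng8 and Cacng2 did not pass.

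Voltage-gated potassium channel pores were the largest family, with 21 members, 5 of them higher, 4 lower and 12 not called. Kcnh7, an erg-type channel (Kv11.3), had the largest value at 1.13 (SE 0.17), or 2.20-fold, in the authors' deposited table. Kcnb2, the Shab-type delayed rectifier Kv2.2, was higher at 0.84 (SE 0.13). Kcnd2, the Kv4.2 channel of dendritic A-type current, was higher at 0.74 (SE 0.06), with a mean of 2879. Kcnq5, an M-current subunit, was higher at 0.51 (SE 0.15). Its relative Kcnq3 was listed at 0.54 (SE 0.22, DESeq2 adjusted p 0.0517), a value of like size that did not pass.

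The lower members of this family were Kcns3, Kcnd1, Kcnh5 and Kcna4. Kcns3, a silent subunit that modifies Kv2 channels, was listed at -0.85 (SE 0.22) in the authors' deposited table. Kcnd1, which encodes Kv4.1 and lies on chromosome X, was at -0.79 (SE 0.17). Kcnh5, an ether-a-go-go channel, was at -0.57 (SE 0.21), and Kcna4, the Shaker-type A-current channel Kv1.4, at -0.50 (SE 0.17). Related genes differed in direction: Kcnd2 was higher and Kcnd1 lower, and Kcnh7 was higher and Kcnh5 lower.

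Auxiliary subunits of voltage-gated potassium channels had 1 call in 7. Kcnab1, a cytoplasmic beta subunit with an oxidoreductase fold, was lower at -0.48 (SE 0.10) in the authors' deposited table. The calcium-binding KChIP genes Kcnip1, Kcnip3 and Kcnip4 were at 0.08, -0.24 and 0.16, each with a standard error of 0.22 or 0.23, and did not pass.

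Calcium- and sodium-activated potassium channels were called in both directions. Kcnma1, the big-conductance BK channel that is also voltage-gated, was higher at 0.53 (SE 0.20) in the authors' deposited table, and its neuronal beta subunit Kcnmb4 was higher at 0.54 (SE 0.15). Of the small-conductance channels behind the afterhyperpolarisation, Kcnn2 was higher at 0.52 (SE 0.21) and Kcnn3 lower at -0.72 (SE 0.17). Kcnt2, a sodium-activated channel, was lower at -0.74 (SE 0.13). The remaining pores, Kcnn1 and Kcnn4, did not pass, at -0.29 and -0.09.

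Of 6 inward rectifiers 2 were higher, and of 7 channels with 2 pore domains 3 were higher; the others did not pass. Kcnj3, the G-protein-gated GIRK1 subunit, had the second largest value of all members, 2.19 (SE 0.20, DESeq2 adjusted p 2.32e-25) or 4.57-fold, in the authors' deposited table. Kcnj13, the Kir7.1 channel of transporting epithelia such as the retinal pigment epithelium, was higher at 1.54 (SE 0.23). The other 4 inward rectifiers, with values from -0.16 to 0.12, did not pass. Kcnk4 (TRAAK), Kcnk10 (TREK-2) and Kcnk2 (TREK-1), the 3 mechanosensitive 2-pore channels, were higher at 1.002 (SE 0.22), 0.85 (SE 0.23) and 0.55 (SE 0.18) in the authors' deposited table. The other 4 members of that family, Kcnk1, Kcnk5, Kcnk6 and Kcnk13, lay between -0.17 and 0.03 and did not pass.

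Kcnj3 and Kcnt2 had the highest and the lowest log2 fold change among called members with a single RefSeq promoter entry, and their start regions are printed in the same way, at chr2:55435720-55436019 and chr1:140245468-140245767, both on the plus strand.
Kcnj3: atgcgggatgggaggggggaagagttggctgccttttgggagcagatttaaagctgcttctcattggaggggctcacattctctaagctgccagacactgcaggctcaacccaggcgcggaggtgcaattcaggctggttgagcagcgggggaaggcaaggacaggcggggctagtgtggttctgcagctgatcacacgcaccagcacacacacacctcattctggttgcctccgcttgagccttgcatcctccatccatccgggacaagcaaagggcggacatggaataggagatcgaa
Kcnt2: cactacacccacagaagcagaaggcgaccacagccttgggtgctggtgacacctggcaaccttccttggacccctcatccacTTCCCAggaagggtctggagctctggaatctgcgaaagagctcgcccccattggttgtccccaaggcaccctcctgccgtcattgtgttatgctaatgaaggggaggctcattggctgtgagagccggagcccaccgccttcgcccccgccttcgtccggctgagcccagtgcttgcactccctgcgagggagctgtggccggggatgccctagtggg
Kcnt2 held the core once and Kcnj3 not at all. RefSeq gave 87 promoters for 58 of the 77 members, and TGGGAA on either strand was in 24.1% of them, beside 25.6% of 32851 promoters of all genes. It was in 3 of 22 promoters of members called higher (13.6%), 5 of 14 of those called lower (35.7%) and 13 of 51 of those not called (25.5%). The Myt1-type core AAGTT, again on either strand, was in 27.6% of the members' promoters and 39.3% of all. A match describes letters in this window and not a bound site.

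Genes that work with these channels without matching the symbol rule were called about as often as all genes. Of 35 such partner genes, 33 were in the authors' deposited table and 29 had an adjusted p, with 5 higher, 5 lower and a median log2 fold change of -0.02, where 30.6% of all genes were called. Unc80, a subunit of the sodium leak channel complex, was higher at 0.99 and Dpp10, an auxiliary protein of Kv4 channels, at 0.83. Stac, Gem and Nedd4l, which act on calcium channels or on channel turnover, were higher at 0.55, 0.51 and 0.45. Nalcn, the leak channel pore, was lower at -0.29 in the authors' deposited table, so it differed from Unc80. Unc79, another subunit of that complex, was listed at -0.43 and did not pass. Ank2 and Ank3, the ankyrins that anchor sodium channels, were lower at -0.32 and -0.36, as were Fgf11 and Tpcn2 at -0.43 and -0.49.

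Marker genes of cell types the culture could hold were read beside these values, and their part in them was not tested. Of 10 fibroblast markers, 7 were lower and none higher (median log2 fold change -0.42) in the authors' deposited table. The skeletal muscle list had 6 of 8 genes with a mean under 10, Myod1 and Myog near 0 among them, and none called. Of 6 neuronal markers, Tubb3 was lower at -0.42, while Map2, Syn1, Stmn2 and Snap25 did not pass and Rbfox3 had a mean of 0.19, too low for a call. None of the 4 glial, 4 macrophage or 4 endothelial markers was called, and the macrophage genes had means of 1146 to 2580. Smooth muscle markers gave 1 higher and 2 lower of 5, and epithelial markers 1 higher (Epcam, 0.64) of 4. The summed means of the lists ran from 98.4 for epithelial genes to 432907 for fibroblast genes.

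The retinal libraries gave a separate readout of the same genes. Fragments in a window of each gene body with 2 kb on both sides were counted in nuclei with at least 3000 fragments, 1892 of the control and 699 of Ikzf1/4. Median fragments per nucleus were 6262 and 11034, and 3 barcodes occurred in both. Clustered on 16760 windows without any member, the control nuclei went against their Muller glia label, since only 623 of them were Muller glia-like. In the Ikzf1/4 library, which has no such label, 131 were. Bipolar-like nuclei numbered 643 and 239, Cone-like 265 and 143, Rod-like 95 and 139, and Microglia-like 115 and 18. Amacrine-like nuclei, 68 and 2, were too few for a comparison between libraries, and 83 and 27 nuclei stayed unnamed. The Rod-like share was 5.02% (95% exact interval 4.08% to 6.10%) of control and 19.9% (17.0% to 23.0%) of Ikzf1/4 nuclei, and the Muller glia-like share 32.9% (30.8% to 35.1%) and 18.7% (15.9% to 21.8%). Levels are given as FPM, fragments per 1000000 fragments of the nuclei counted, and per kb of window where genes are set beside each other. Chromosome Y gave 86.5 FPM in control nuclei and 228 FPM in Ikzf1/4 nuclei. With 1 library per group there is no test between them, and intervals cover counting error only.

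The class with the highest FPM was the same in both libraries for 56 of 77 members. Among the 66 with at least 100 fragments in each library it was 51, or 77.3% beside 59.7% of 14209 coding genes. Of the 56, 29 were highest in Bipolar-like nuclei, 10 in Muller glia-like, 8 in Microglia-like, 6 in Cone-like and 3 in Rod-like. Over all 77 members the Bipolar-like count was 37.7% and the Rod-like count 3.90%. Of all 14209 coding genes, 8.05% were highest in Bipolar-like nuclei in both libraries and 21.4% in Rod-like, the most frequent class. The 77 include members under the 100 fragments that these genes had to meet. Of the 66 members, 24 exceeded the other classes by 1.5-fold in Bipolar-like nuclei in both libraries, or 36.4% beside 5.82% of coding genes. These ratios set a class against the other 4 named here, and leave out the Amacrine-like and unnamed nuclei. With those among the others the count fell to 15, or 22.7% beside 4.99% of genes, an alternative added after seeing the data. Among windows of at least 100 kb it was 19 of 38 members beside 12.4% of genes, a split made because members have long windows (median 133 kb against 31.9 kb). Muller glia-like nuclei had 7 such members (10.6% beside 7.11% of genes) and Microglia-like 6 (9.09% beside 11.3%). Among windows of at least 100 kb the Muller glia-like count was 1 of 38 members beside 13.3% of genes, below the share of genes in place of above it. Cone-like nuclei had 2 (3.03% beside 5.25%) and Rod-like 1 (1.52% beside 8.96%).

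**Figure D3:**
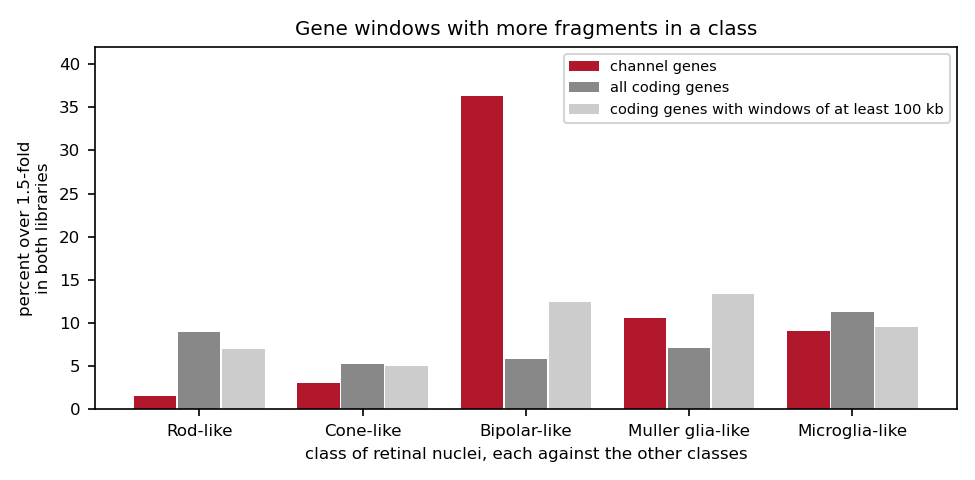
Percent of gene windows whose FPM exceeded that of the other classes by 1.5-fold in both libraries, for each class of retinal nuclei. Red bars are the 66 channel genes with enough fragments, dark grey bars all 14209 coding genes and light grey bars coding genes with windows of at least 100 kb; the channel genes reach 36.4% in Bipolar-like nuclei.

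Of the 5 classes compared, Bipolar-like nuclei held the most members past 1.5-fold, sodium, calcium and potassium channel genes among them. Kcna4, Kcnh5 and Kcnb2 led by the lower of the 2 libraries' ratios. In the Kcnb2 window FPM was 2.98 times that of the other classes in the control (95% interval 2.64 to 3.37) and 3.13 times in the Ikzf1/4 library (2.65 to 3.71). For Kcnh5 the ratios were 3.14 and 6.20, and for Kcna4, which had only 85 fragments in the Ikzf1/4 library, 3.92 and 4.92. Kcnma1, whose BK channel acts in rod bipolar and amacrine cells, was at 2.30 and 2.50. Cacna2d4, the alpha2delta isoform of photoreceptor and bipolar terminals, was at 2.91 and 2.39. In the Cacna2d4 window the accessibility was 2.09 FPM per kb in Bipolar-like, 1.40 in Rod-like, 1.18 in Cone-like, 0.423 in Muller glia-like and 0.413 in Microglia-like control nuclei. The order was the same in the Ikzf1/4 library, at 2.71, 1.79, 1.32, 0.403 and 0.327.

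The Amacrine-like nuclei of the control, 68 with 586963 fragments, often matched or exceeded the Bipolar-like ones. Of the 26 members with Bipolar-like ratios past 1.5-fold and intervals above 1 in both libraries, 15 had a higher FPM in Amacrine-like control nuclei, 9 of them with an interval above 1, and 4 had an interval below 1. Of 823 coding genes with at least 100 fragments in each library that met the same criteria, 31.2% were higher in Amacrine-like nuclei, 7.65% with an interval above 1, and 26.6% had an interval below 1. The Kcna6 window held 56.2 FPM there against 24.2 in Bipolar-like nuclei, a ratio of 2.33 (1.52 to 3.48). Kcna4 was at 1.96 times, Kcnh7 at 1.91 times (1.48 to 2.44) and Cacna2d3 at 1.67 times (1.48 to 1.89). Scn2a held 51.1 against 49.1 FPM, a difference within counting error. Cacna2d4, Cacna2d1, Cacna1h and Kcnma1 were lower in Amacrine-like nuclei, at 0.449 to 0.803 times. In unnamed nuclei 11 of the 26 had a higher FPM than in Bipolar-like nuclei of the control, and 12 did with Ikzf1/4, beside 21.5% and 24.1% of those genes.

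The sodium channel cluster of chromosome 2 divided between classes. Scn2a was at 2.76 and 2.48 times the other classes in Bipolar-like nuclei, Scn3a at 2.57 and 2.71 times and Scn9a at 1.79 and 1.67 times. The neighbouring Scn7a window was instead low there, at 0.462 and 0.451 times. Among the 5 classes compared, Scn9a was highest in control nuclei in the Bipolar-like class and Scn7a in the Muller glia-like class. In the Ikzf1/4 library both were highest in the Muller glia-like class of the 5, though for Scn9a the Bipolar-like class was close, at 13.1 against 14.0 FPM. Unnamed nuclei held more in the Scn9a window than any of the 5, at 54.5 FPM in the control and 42.5 FPM with Ikzf1/4. These values rest on 57 and 56 fragments, the latter from 27 nuclei of high depth that may not be single.

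Muller glia-like nuclei had a different set. Kcnj10, the Kir4.1 channel by which Muller glia take up potassium, reached 3.12 FPM per kb in control Muller glia-like nuclei against 0.773 to 1.75 in the other classes. That was 3.25 times the other classes together (2.80 to 3.78), and 5.25 times (4.35 to 6.36) in the Ikzf1/4 library. Scn7a was at 4.13 times (3.21 to 5.34) and 8.56 times (5.70 to 13.1), resting on 187 and 75 fragments. Cacng4 was at 4.00 and 4.48 times. Kcnmb4 (2.18 and 1.96 times), Kcnk1 (1.95 and 2.20 times) and Cacnb1 (1.79 and 1.73 times) were also past 1.5-fold there.

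Photoreceptor-like nuclei led for few members. Kcnv2, which encodes a silent potassium channel subunit of photoreceptors, is no member, as its mean in fibroblasts was under 10. Its window was at 8.73 and 5.35 times the others in Rod-like nuclei, from 38 and 65 fragments. In Cone-like nuclei Kcnab1 was at 2.03 and 2.11 times and Kcng1, a silent subunit, at 1.82 and 4.77 times.

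Microglia-like nuclei led for Kcnk6 and for Kcnk13, which encodes the THIK-1 channel that sets the resting potential of microglia. Kcnk13 was at 3.31 times the others in the control (2.67 to 4.09) and 6.17 times in the Ikzf1/4 library (4.32 to 8.62). Kcnk6 was at 6.83 and 4.72 times, but its Ikzf1/4 value rests on 8 fragments, and it had under 100 fragments in that library. Kcna3, the Kv1.3 channel of immune cells, was at 3.27 and 5.15 times, and Kcnn4, the intermediate-conductance KCa3.1 channel of immune cells, at 2.95 and 2.68 times. Their Ikzf1/4 values rest on 14 and 9 fragments, with intervals of 2.70 to 9.12 and 1.19 to 5.29.

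The other retinal channel genes of the list are given whatever their values. Cacna1f, the photoreceptor L-type calcium channel and no member, was at 1.86 and 1.15 times in Rod-like and 1.97 and 1.36 times in Cone-like nuclei. Cacna1s, also no member, was at 2.10 and 1.90 times in Bipolar-like nuclei. The Kcnip3 window was at 1.28 and 1.79 times in Bipolar-like nuclei, and that of Scn1a at 1.502 and 2.21 times. Kcnj13 had 45 and 32 fragments in all, too few for an order of classes.

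**Figure D4:**
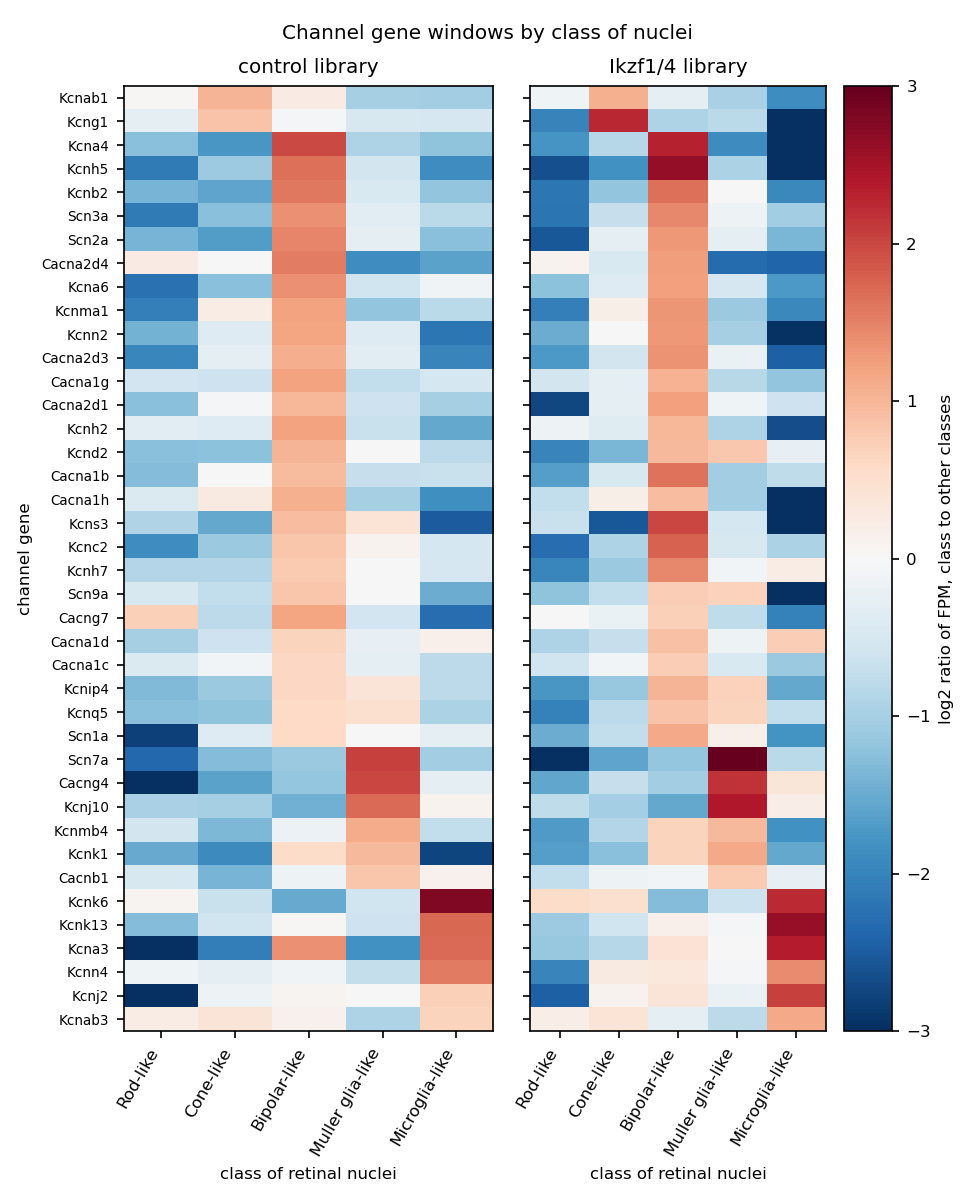
Log2 ratio of FPM in each class to that of the other classes together, for 40 of the 43 channel genes past 1.5-fold in a class in both libraries with counting intervals above 1, in the control (left) and the Ikzf1/4 library (right). Values beyond 3 in either direction, zeros among them, are drawn at the end of the colour scale. Of the genes drawn, 26 were chosen through the Bipolar-like class, 6 each through the Muller glia-like and Microglia-like classes and 2 through the Cone-like class.

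Between the libraries as a whole, few members were past 1.5-fold, and intervals lay under 1 more often than over it. Of 66 members with at least 100 fragments in each, 1 was past 1.5-fold higher in the Ikzf1/4 library, beside 1.51% of genes, and Scn7a alone past it in the lower direction, beside 1.11%. Intervals lay wholly under 1 for 21 members, or 31.8% beside 11.9% of genes, and wholly over 1 for 13, or 19.7% beside 33.3%. The Scn7a window held 24.2 and 15.8 FPM, a ratio of 0.651 (0.534 to 0.792). Scn7a was led by Muller glia-like nuclei, whose share was smaller in the Ikzf1/4 library. Within that class the Scn7a window held 47.67 FPM in the control and 47.66 FPM with Ikzf1/4. The interval of that ratio was 0.755 to 1.31. In Bipolar-like nuclei the Scn7a ratio was 0.583 (0.338 to 0.974), from 54 and 22 fragments. It was 0.515 in Cone-like, 0.283 in Rod-like and 0.668 in Microglia-like nuclei, each with an interval that held 1. With each class given its control share, the Scn7a ratio became 0.854, while Kcnk10 went from 0.685 to 0.656 and was then the 1 member past 1.5-fold, and Scn1a went from 0.710 to 0.668.

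High ratios short of 1.5 were 1.37 for Kcng1 (1.09 to 1.72; 0.975 over all barcodes), 1.34 for Cacna2d4 and Cacng7 and 1.32 for Kcnh2, the erg1 channel. The next lowest were 0.685 for Kcnk10 (0.572 to 0.817), 0.701 for Cacng4, 0.710 for Scn1a and 0.735 for Cacng2. Over all barcodes these became 0.942, 0.767, 0.775 and 0.943 in the same order. With each class given its control share they became 0.656, 0.883, 0.668 and 0.789. Over all nuclei and whole windows the median ratio of the members was 0.943, beside 1.06 for all genes. With each class given its control share, an alternative added after seeing the data, these medians were 0.991 and 1.05. This order turned in narrower windows. Within 1 kb of gene ends the medians were 1.197 for the 20 members with enough fragments and 1.11 for genes, and within 500 bp of start sites 1.14 for 9 members and 1.11 for genes. With fragments in gene windows in place of all fragments as the scale, the whole-window medians became 0.896 for members and 1.01 for genes. At that scale 0 members were past the fold higher and 3 lower. By their fibroblast calls, the median ratio was 0.929 for 21 members higher there, 0.870 for 10 lower and 0.965 for 35 not called. For Scn3b, the member with the largest fibroblast change, the retinal ratio was 1.18 (0.918 to 1.51), and for Kcnj3 it was 0.884 (0.732 to 1.07).

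**Figure D5:**
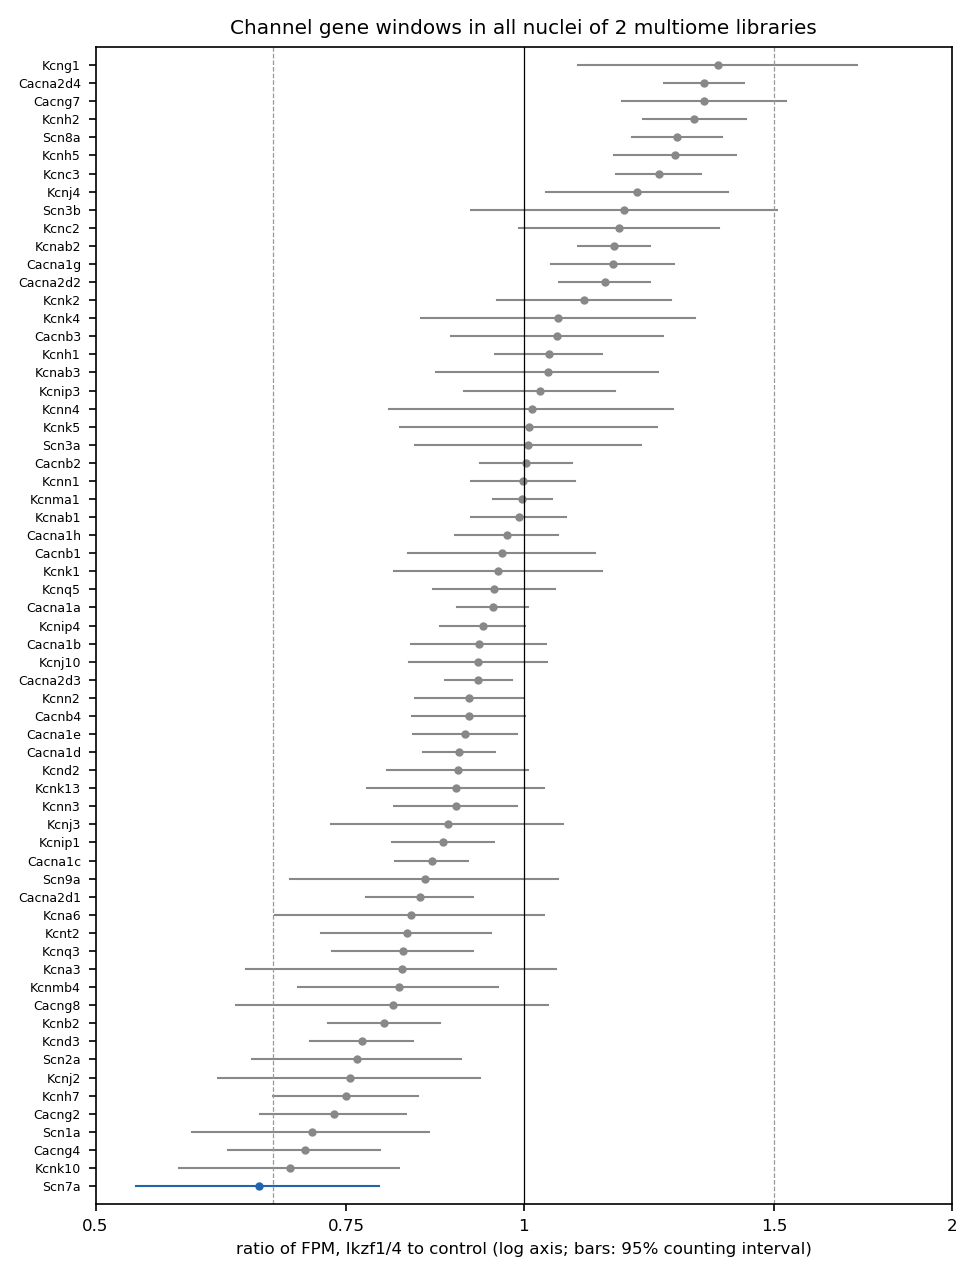
Ratio of FPM in the Ikzf1/4 library to FPM in the control, all nuclei, for 63 of the 66 channel genes with at least 100 fragments in each (log axis; bars: 95% counting interval; dashed lines: 1.5-fold). Of those drawn, Scn7a at 0.651 is the one past a dashed line.

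Within classes few members were past 1.5-fold. In Cone-like nuclei 3 of 40 members with at least 50 fragments in each library were higher (2.4% of genes) and 0 lower (0.978% of genes). Among these were Cacng7 at 1.99 (1.39 to 2.88) and Cacna1g at 1.51 (1.17 to 1.97). In Bipolar-like nuclei 1 of 56 was higher (3.15% of genes) and 2 lower (1.06% of genes). Kcnh5 was higher at 1.64 (1.44 to 1.86), and Kcnk10 and Scn2a were lower at 0.644 (0.458 to 0.895) and 0.663 (0.513 to 0.851). In Muller glia-like nuclei 0 of 42 were higher (5.4% of genes) and 2 lower (1.01% of genes), Kcnh7 at 0.608 (0.439 to 0.830) and Kcnd3, the Kv4.3 channel, at 0.620 (0.508 to 0.752). Rod-like nuclei gave 13 and Microglia-like nuclei 2 members with enough fragments, and 0 of them were past the fold. Genes past it made up 1.33% (higher) and 2.24% (lower) in Rod-like and 19.8% and 0.251% in Microglia-like nuclei. With fewer than 50 fragments in a library, Kcnh7 was also low in Rod-like (0.335, 0.159 to 0.697) and Cone-like nuclei (0.562, 0.367 to 0.846). Kcnk10 was low in Cone-like nuclei (0.382, 0.203 to 0.683) but at 1.81 (0.589 to 7.38) in Rod-like. In Microglia-like nuclei Kcnh7 was at 1.02 and Kcnk10 at 0.967, both with intervals that held 1. Also below 50 fragments in a library, Kcng1 was high in Cone-like nuclei, at 2.23 (1.52 to 3.31) from 43 and 82 fragments. Other members below that limit are not listed.

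The Bipolar-like and Muller glia-like classes each held a pair of clusters, and the members differed in how they behaved inside them. For Kcnh5 the ratio was 1.09 (0.865 to 1.37) in the first Bipolar-like cluster and 1.05 (0.889 to 1.25) in the second, neither near the 1.64 of the class. The second cluster, marked by Prkca, Trpm1 and Isl1, held 277 and 291 FPM in the Kcnh5 window, the first 69.5 and 75.8. Its nuclei were 118 of 643 control and 119 of 239 Ikzf1/4 nuclei of the class. For Scn2a the ratios were 0.805 (0.587 to 1.09) and 0.487 (0.301 to 0.784), and for Kcnk10 0.808 (0.529 to 1.21) and 0.422 (0.225 to 0.782), so for both genes the first interval held 1. Kcnd3 was at 0.615 (0.485 to 0.774) and 0.640 (0.437 to 0.918) in the Muller glia-like clusters, both with intervals under 1. Kcnh7 was at 0.621 (0.419 to 0.899) and 0.584 (0.308 to 1.04), the latter from 15 Ikzf1/4 fragments.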

How the data were processed

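Fibroblast RNA-seq came from 3 libraries per group and retinal multiome ATAC from 1 library per group. Per the labels, transcripts were quantified with Salmon, and the authors deposited estimated counts per transcript, used here for library depth only. The gene table was made with DESeq2, per the labels. In it the authors give a mean signal (scaled counts averaged over the 6 libraries), log2 fold changes and their standard errors, a Wald score, and p-values before and after adjustment. Versions, annotation and any shrinkage were not given in the sources. Fragment counts were made with cellranger-arc 2.0.1 on mm10, per the file headers, with duplicates collapsed.

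The members and gene lists were chosen with earlier results of these data known. Calls per gene are the authors' own. Named in fibroblasts were the 12 highest and 12 lowest called log2 fold changes, all sodium and calcium pores and the 3 genes on each side of the minimum. In the retina these were the 5 highest and 5 lowest ratios, the 3 leading members of each class and a list of retinal channels. Other genes were named after their values were seen. Some genes that enter the counts are not reported here by name or drawn.

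Nuclei had at least 3000 fragments, an enrichment at gene start sites of at least 4 and fragments under the 99th percentile of their library. No doublet caller was run. They were clustered on gene windows without members (29 components, leidenalg 0.10.2, resolution 0.8), and classes were named from at least 3 markers. Windows follow the RefSeq gene table of GRCm38.p6. Ratios carry exact conditional binomial 95% intervals, checked on simulated data. A ratio was past the fold when over 1.5 or under its inverse with an interval that left out 1. Python 3.11.15, SciPy 1.17.1 and scikit-learn 1.9.0 were used. The fibroblast ATAC peak lists were left out, because their coordinates run past the end of chromosome 1 of mm10. Neither the single-cell RNA data nor the multiome RNA was analysed here. Nothing in the labels says whether the 3 libraries of a group came from separate cultures, so p-values may measure technical spread only.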

Additional observations from a re-analysis of the deposited data

How the results depend on the processing

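No paired analysis was possible because gene values per library need a pairing of transcripts with genes, which no source used here gives; for the same reason the replicate block and leaving out each replicate were not run. Of 77 members, 35 were called in fibroblasts. With an absolute log2 fold change over 1 required as well this became 9, beside 2.15% of all genes, and with Bonferroni adjustment 13. It was 30 at an adjusted p under 0.01, 26 with an absolute log2 fold change over 0.5, 35 of 90 members with a mean of at least 5, 30 of 53 with a mean of at least 50 and 25 of 53 pore-forming subunits. In the retina 2 of 66 members were past 1.5-fold, 1 higher and 1 lower. Among nuclei with at least 10000 fragments there were 4 of 57, over all barcodes 0 of 76, and within 1 kb of gene ends 4 of the 20 with enough fragments, all higher. With classes weighted as in the control, an alternative added after seeing the data, there was 1 of 66. The causes were not tested. Scaling to autosomal fragments gave 2 of 66 and thinning each nucleus to 3000 fragments 2 of 32, each 1 higher and 1 lower. Counting within 500 bp of start sites (added after seeing the data) gave 2 of 9, both higher, and scaling to gene windows 3 of 66, all lower. Apart from the fold change over 1, no share of all genes is given for these alternative settings, in fibroblasts or retina. Of 57 alternative values for the 10 named ratios, 38 stayed within their interval and 19 moved. One of these crossed 1, the Kcng1 ratio, which was 1.37 and became 0.975 over all barcodes. The 24 members past 1.5-fold in Bipolar-like nuclei became 15 with Amacrine-like and unnamed nuclei among the others (added after seeing the data). The 56 members highest in the same class became 48 to 51 under the alternatives run. Depth limits the retina: 11 members had under 100 fragments in a library, and Microglia-like values rest on 18 Ikzf1/4 nuclei.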
